A study of Glycine max with 6 samples.

Results

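The amino acid transporters of soybean roots, together with their auxin-carrying relatives, were 188 of the 48667 genes listed in 6 libraries. They were found by the words of the deposited protein description, namely amino acid permease, amino acid transporter, lysine histidine transporter, proline transporter, GABA transporter, auxin transporter-like protein or WAT1-related protein. By description they were 65 WAT1-related genes, 25 amino acid permeases, 17 cationic amino acid transporters, 17 lysine histidine transporters, 14 auxin transporter-like genes, 7 GABA transporters and 5 proline transporters. A mixed set of 38 other amino acid transporters completed them, mostly described as vacuolar or as sodium-coupled neutral amino acid transporters, a name taken from animal proteins. No description matched more than 1 of the search terms. The descriptions are by sequence similarity, and transport by these soybean proteins was not measured.

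Plant roots take amino acids up and pass them between cells through several families of membrane carriers. Amino acid permeases (AAP), lysine histidine transporters (LHT), proline transporters (ProT), GABA transporters (GAT) and the auxin importers AUX1 and LAX belong to one superfamily, and those studied in Arabidopsis mostly move their substrate into the cell together with protons. Cationic amino acid transporters (CAT) form a separate family, whereas several vacuolar amino acid transporters (AVT) exchange amino acids across the tonoplast. WAT1-related proteins take their name from Arabidopsis WALLS ARE THIN1, an exporter of auxin from the vacuole. Many of their Arabidopsis relatives, called UMAMITs, release amino acids from cells without using the proton gradient.

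Roots of soybean (*Glycine max*) were sampled after long-term hydroponic culture at pH 4.2 (acid-treated, 3 libraries) or at pH 5.8 (control, 3 libraries). Each library held the pooled roots of a pair of plants, and both pH-treatments had the same nutrient solution with nitrate and ammonium, its pH reset daily with dilute KOH or H2SO4. The labels name the material YC03-3 and give the tissue as root, while the methods of the study name the genotype Huachun 6. The comparison asks how root transcripts responded to acidity stress.

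Library totals were 9137226 to 9335903 expected counts in acid-treated roots and 9286525 to 9358750 in control roots. At these totals 3 counts lay between 0.311 and 0.338 CPM (counts scaled to the TMM-adjusted library total). This level covers counting error only and was not used as a cut-off, so that lower values below were kept as they are. Replicates of a pH differed by more than counting noise, with a chi-square per degree of freedom from 7.51 to 32.7. Genes of a root list (Casparian strip membrane proteins, SHORT-ROOT and SCARECROW-like genes) summed to between 1287 and 1537 CPM in acid-treated and between 1494 and 1835 CPM in control libraries, and of its 82 genes 77 had a count in every acid-treated and 80 in every control library. Leaf markers (chlorophyll a-b binding proteins and the small subunit of Rubisco) also reached 1538 to 2354 CPM in acid-treated and 1287 to 2093 CPM in control libraries. The 2 leghemoglobin genes summed to 288 to 341 CPM in acid-treated and 192 to 325 CPM in control libraries. The 2 root tip markers summed to 8.68 to 17.9 CPM in acid-treated and 4.15 to 7.35 CPM in control libraries, and the 3 xylem markers to 8.34 to 15.6 CPM in acid-treated and 7.89 to 28.0 CPM in control libraries. The root tip markers alone did not overlap between the groups, and only 1 of these 2 genes had enough counts to be tested. Of the 72 root list genes tested, 1 was differentially expressed by the rule given below, lower in acid-treated roots, beside 0.331% of all genes tested. The part of such marker shifts in the values below was not tested. In whole roots, fewer cells of a type cannot be told apart from less RNA per cell.

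Of the 188 genes, 125 had enough counts to be tested with edgeR's quasi-likelihood test. The other 63 had means of at most 2.45 CPM (median 0.302 CPM), 10 of them without a count in any acid-treated library and 9 without one in any control library. A gene was called differentially expressed (DEG) at a Benjamini-Hochberg adjusted p under 0.05, taken over all 33490 genes tested, together with at least a 2-fold change. Under this rule 4 transporter genes were called, 1 higher and 3 lower in acid-treated roots, and all 4 were WAT1-related. They were 11.4% of the 35 WAT1-related genes tested, beside 0.558% of all genes tested (0.227% higher and 0.331% lower). DESeq2 called 15 of the 156 transporter genes it gave an adjusted p, 3 higher and 12 lower, beside 2.77% of all genes it gave an adjusted p (1.22% higher and 1.55% lower). In the other 7 families, edgeR called none of the 90 genes tested, with 17 of them at an unadjusted p under 0.05 and 6 called by DESeq2. At that unadjusted p, 7 of the 125 genes lay higher and 24 lower under acid treatment, beside 4.21% and 7.6% of all genes tested (11.8% in all).

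**Figure D1:**
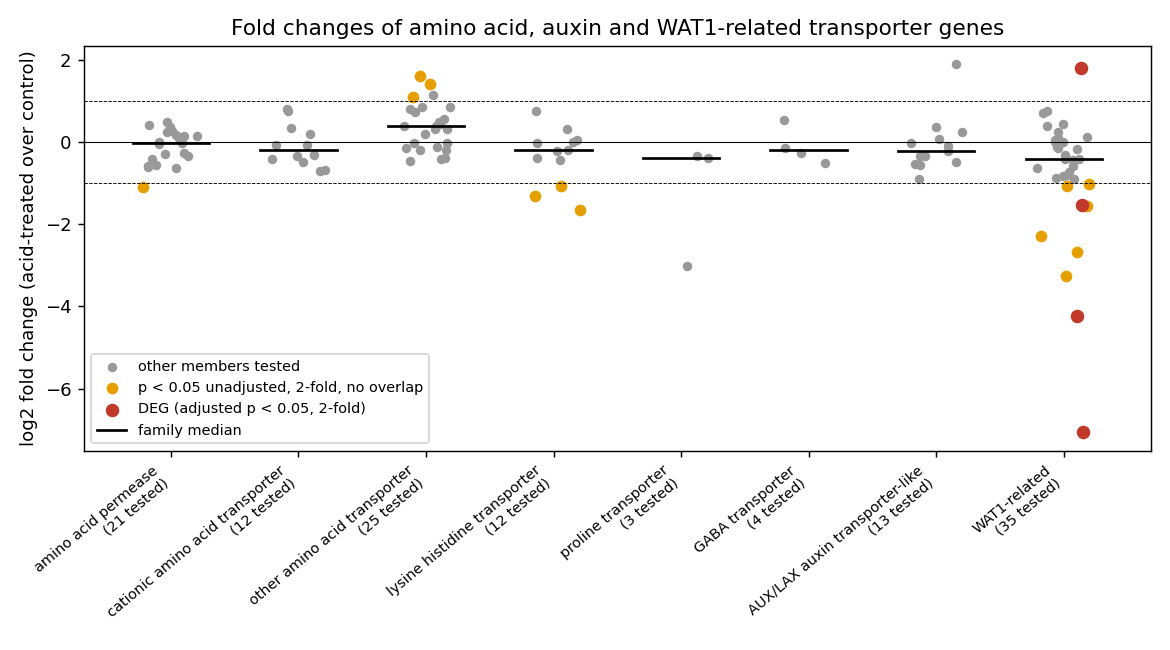
Log2 fold change (acid-treated over control, edgeR) of each tested gene, by family, with the family median as a bar, a solid line at 0 and dashed lines at 2-fold. The 4 DEGs are all in the WAT1-related column, from -7.06 to 1.81, and the column of other amino acid transporters has the only median above 0.

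The WAT1-related genes included both the largest decrease and the only called increase. *Glyma.06G123200*, described as similar to At1g70260, was almost silent in acid-treated roots and among the more abundant genes of its family in control roots. *Glyma.14G148100* and *Glyma.06G112200*, similar to At4g08290 and At4g08300, also fell, and *Glyma.17G069200*, similar to At4g28040, rose. Over the family, 24 of the 35 genes tested had a negative and 11 a positive log2 fold change, with a median of -0.41 beside -0.0026 for all genes tested.

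*Glyma.06G123200* had 0.338, 1.37 and 0.776 CPM in the acid-treated libraries, against 110, 47.4 and 183 CPM in the control libraries. The highest acid-treated library was far below the lowest control library. Its mean was 0.829 ± 0.520 CPM in acid-treated roots and 114 ± 68.0 CPM in control roots (SD, n = 3 each), which is 137-fold lower, or -7.06 ± 0.66 on the log2 scale (SE, edgeR adjusted p = 0.00824). The Arabidopsis gene at At1g70260, *RTP1*, is known for its effect on resistance to *Phytophthora*. Without acid-treated replicate 2 the edgeR adjusted p was 0.0593.

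*Glyma.14G148100* had 1.80, 2.96 and 3.10 CPM in the acid-treated libraries, against 51.2, 26.6 and 71.0 CPM in the control libraries. Again the groups were far apart, and control replicate 2 was the lowest of the controls. It was 18.9-fold lower, or -4.23 ± 0.41 on the log2 scale (SE, edgeR adjusted p = 0.00918), and without acid-treated replicate 2 the edgeR adjusted p was 0.0793.

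*Glyma.06G112200*, the third most abundant WAT1-related gene per length, had 53.2, 52.9 and 51.2 CPM in the acid-treated libraries, against 148, 126 and 179 CPM in the control libraries. The acid-treated libraries were nearly equal, with an SD of 1.09 CPM beside 26.6 CPM in the controls. The change of -1.52 on the log2 scale (standard error 0.22) passed the threshold at an edgeR adjusted p of 0.0310, but not in 5 of the 6 fits that left out 1 library (0.0615 to 0.242). Without control replicate 2 it was called, at an adjusted p of 0.0117.

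*Glyma.17G069200* had 18.4, 15.1 and 17.7 CPM in the acid-treated libraries, against 5.62, 3.63 and 5.29 CPM in the control libraries. It was 3.52-fold higher in acid-treated roots, and the replicates of each pH lay close together. This was 1.81 ± 0.25 on the log2 scale (SE, edgeR adjusted p = 0.0243). This gene too was called in only 1 of the 6 fits with a library left out, that without control replicate 2 (0.0150, against 0.0592 to 0.133 in the others).

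**Figure D2:**
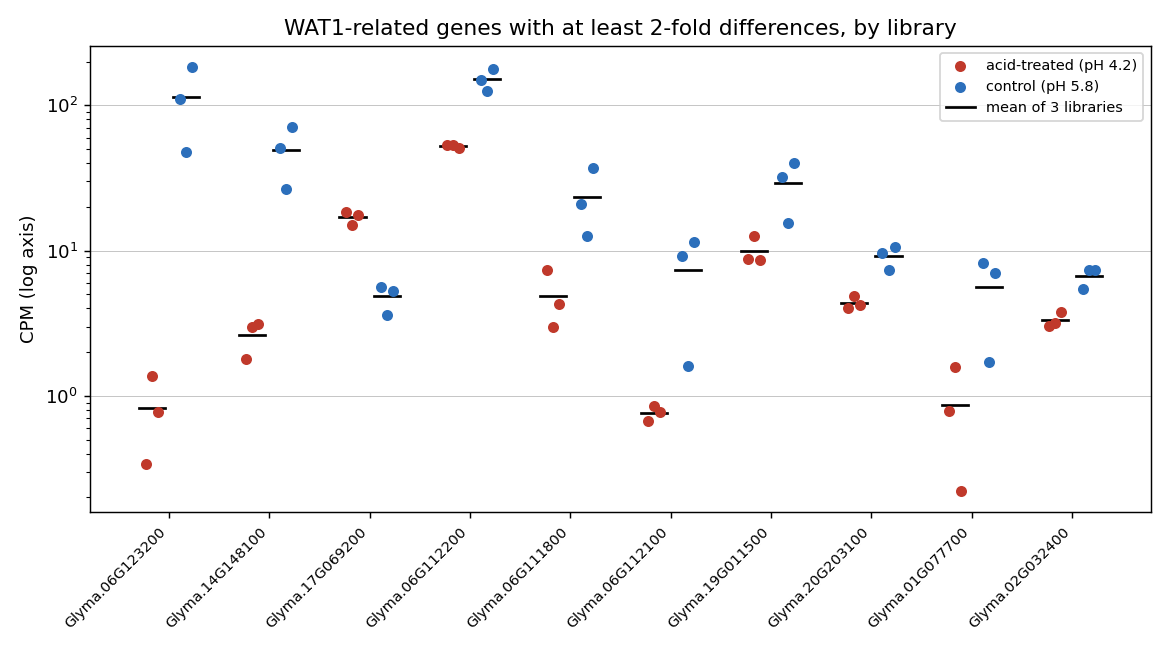
CPM on a log axis in each library for the 10 WAT1-related genes with at least a 2-fold difference, an unadjusted p under 0.05 and no overlap between groups, ordered by p, with bars at the means of 3 libraries. *Glyma.17G069200* is the only one with the acid-treated libraries above the controls, and control replicate 2 is the lowest control for 8 of the other 9.

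Beside the DEGs, 6 WAT1-related genes differed at least 2-fold with an unadjusted p under 0.05 and groups that did not overlap, and all 6 were lower in acid-treated roots. Counting every size of difference, 13 of the 35 lay wholly below the controls (37.1%, beside 9.24% of all genes tested). With the DEGs the 6 genes made 9 lower genes and 1 higher gene among the 35 tested, where 2.88% and 2.09% of all genes tested met the same 3 conditions. The log2 fold changes of the 6 ran from -3.25 to -1.01 and their adjusted p-values from 0.0896 to 0.185 (edgeR), so that none passed over all genes. *Glyma.01G077700* and *Glyma.19G011500*, both similar to At3g28050, had log2 fold changes of -2.68 and -1.55, and DESeq2 called both (adjusted p = 0.0183 and 0.00598). *Glyma.20G203100*, similar to At5g07050, and *Glyma.02G032400*, similar to At5g40210, were close to the 2-fold limit, at -1.07 and -1.01, and neither was called by DESeq2.

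*Glyma.01G077700* shows how narrow the separation can be. It had 0.789, 1.58 and 0.222 CPM in the acid-treated libraries, against 8.21, 1.71 and 7.05 CPM in the control libraries, and acid-treated replicate 2 and control replicate 2 were nearly level.

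Several of the lower genes are neighbours on chromosome 6. In the RefSeq gene order of a later soybean assembly, *Glyma.06G111600*, *Glyma.06G111800*, *Glyma.06G111900*, *Glyma.06G112100* and *Glyma.06G112200* lie within a stretch holding 5 coding genes between its first and last member. All but the last are described as similar to At4g08290. *Glyma.06G111700*, whose identifier falls in this stretch, has auxin-induced protein 5NG4 and a hypothetical protein as its descriptions, the first named after a pine gene of the same protein family, and so was not among the 188 genes.

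*Glyma.06G111800* had 7.33, 2.96 and 4.32 CPM in the acid-treated libraries, against 21.0, 12.7 and 37.0 CPM in the control libraries (log2 fold change -2.27 ± 0.46 SE, edgeR adjusted p = 0.0896). *Glyma.06G112100* had 0.676, 0.845 and 0.776 CPM in the acid-treated libraries, against 9.18, 1.60 and 11.4 CPM in the control libraries (log2 fold change -3.25 ± 0.70 SE, edgeR adjusted p = 0.0989). *Glyma.06G111700* had 0.902, 0.634 and 1.55 CPM in the acid-treated libraries, against 36.5, 3.63 and 25.4 CPM in the control libraries (log2 fold change -4.39 ± 0.82 SE, edgeR adjusted p = 0.0722). In each of these 3 genes the groups did not overlap, control replicate 2 was the lowest control, and DESeq2 called all 3, at an adjusted p of 0.000379, 0.000644 and 1.64e-07.

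Other genes of the stretch, named here for their position after the values were seen, differed less clearly. *Glyma.06G111900*, which lies next to *Glyma.06G111800*, had 34.6, 24.9 and 34.0 CPM in the acid-treated libraries, against 26.7, 93.2 and 43.9 CPM in the control libraries, and the groups overlapped (log2 fold change -0.81 ± 0.41 SE, edgeR adjusted p = 0.510). Here control replicate 2 was the highest control. *Glyma.06G111600* was removed by the filter, at 0.789, 0.423 and 0.554 CPM in the acid-treated libraries and 3.78, 0.427 and 8.70 CPM in the control libraries.

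**Figure D3:**
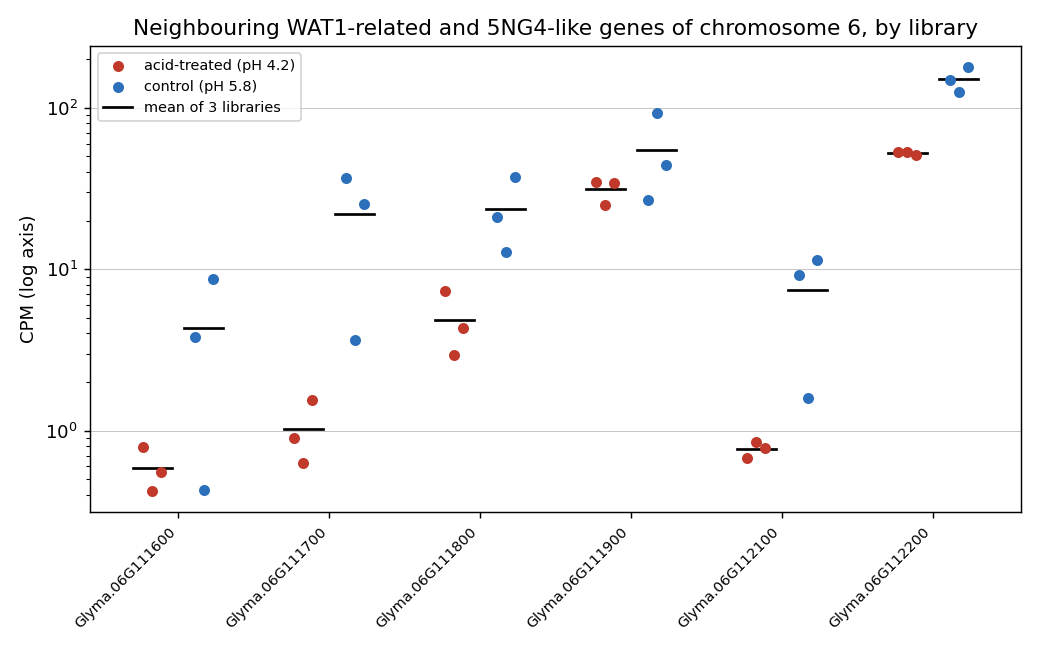
CPM on a log axis in each library for the WAT1-related genes of the chromosome 6 stretch and the 5NG4-like *Glyma.06G111700*, in the order of their identifiers, with bars at the means of 3 libraries. Acid-treated libraries lie wholly below the controls for *Glyma.06G111700*, *Glyma.06G111800*, *Glyma.06G112100* and *Glyma.06G112200*, and overlap with them for *Glyma.06G111600* and *Glyma.06G111900*.

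Genes next to the largest decreases, chosen in the same way, had other values. *Glyma.06G123400*, separated from *Glyma.06G123200* by 1 coding gene, had 20.3, 18.6 and 17.0 CPM in the acid-treated libraries and 13.5, 22.0 and 18.9 CPM in the control libraries (log2 fold change 0.04 ± 0.23 SE). *Glyma.14G148300*, likewise 1 gene from *Glyma.14G148100*, had 27.8, 23.2 and 19.5 CPM in the acid-treated libraries and 15.5, 27.5 and 23.3 CPM in the control libraries (log2 fold change 0.09 ± 0.25 SE). Both overlapped between the groups, and the difference from their neighbours was not tested. Counts of *Glyma.14G148300* were not whole numbers in any of the 6 libraries, so reads may have been shared with a similar gene. On chromosome 19, *Glyma.19G011500* had 8.79, 12.6 and 8.64 CPM in the acid-treated libraries, against 32.3, 15.6 and 39.9 CPM in the control libraries, and the gene beside it, *Glyma.19G011600*, had a log2 fold change of -0.59 (edgeR adjusted p = 0.404).

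The 2 most abundant WAT1-related genes per length showed no such difference. *Glyma.13G081000*, similar to At1g44800 (*SIAR1*, an amino acid transporter of Arabidopsis), stood at 156 ± 21.8 FPKM in acid-treated and 157 ± 50.2 FPKM in control roots (SD, n = 3 each), where FPKM is the count scaled by gene length and library total. Its counts were fractional in all 6 libraries. *Glyma.06G310700*, similar to At5g07050, stood at 106 ± 14.3 FPKM in acid-treated and 116 ± 23.2 FPKM in control roots (SD, n = 3 each). Their log2 fold changes were 0.01 ± 0.31 and -0.11 ± 0.25 (SE), and both changed sign between alternative fits. Summed over the 65 genes, the family had 861, 721 and 803 CPM in the acid-treated libraries, against 1033, 1172 and 1427 CPM in the control libraries. The groups did not overlap, and the log2 ratio of the means was -0.61 (two-sided exact permutation test, p = 0.1, the smallest that 3 against 3 allow).

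Among lysine histidine transporters, Arabidopsis LHT1 takes up amino acids from the soil solution into the root. None of the 12 soybean LHT genes tested was called by edgeR and 2 were by DESeq2, and 3 differed at least 2-fold at an unadjusted p under 0.05 without overlap, all lower in acid-treated roots, where 2.88% of all genes tested met these conditions in that direction. With smaller differences included, 4 of the 12 lay wholly below the controls (33.3%, beside 9.24% of all genes tested). Of the 12 genes, 9 had a negative log2 fold change, with a median of -0.20.

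*Glyma.01G084800*, described as lysine histidine transporter-like 6, had 10.4, 7.50 and 11.1 CPM in the acid-treated libraries, against 20.0, 25.1 and 26.3 CPM in the control libraries. It was 2.47-fold lower and close to the threshold, at -1.30 ± 0.23 on the log2 scale (SE, edgeR adjusted p = 0.0586). *Glyma.19G083900*, described as lysine histidine transporter 1-like, had 4.96, 3.49 and 4.21 CPM in the acid-treated libraries, against 10.6, 11.2 and 18.3 CPM in the control libraries (log2 fold change -1.66 ± 0.30 SE, edgeR adjusted p = 0.0646). DESeq2 called both, at an adjusted p of 0.00170 and 0.00154, and over the 13 alternatives the adjusted p ran from 0.00170 to 0.316 for the first gene and from 0.00154 to 0.325 for the second.

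*Glyma.16G062600*, described as lysine histidine transporter 1, had 32.0, 22.8 and 37.3 CPM in the acid-treated libraries, against 43.3, 56.4 and 92.2 CPM in the control libraries (log2 fold change -1.06 ± 0.31 SE, edgeR adjusted p = 0.215). The gap between the groups was small beside the spread of the controls. The most abundant LHT gene, *Glyma.01G161100*, stood at 48.0 ± 14.6 FPKM in acid-treated and 49.4 ± 13.5 FPKM in control roots (SD, n = 3 each), and *Glyma.10G204100* at 22.6 ± 2.08 FPKM in acid-treated and 30.9 ± 9.52 FPKM in control roots. Summed over the 17 genes, the family had 377, 258 and 308 CPM in the acid-treated libraries and 319, 358 and 499 CPM in the control libraries, which overlapped (log2 ratio -0.32, exact permutation test, p = 0.4).

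Amino acid permeases import a broad range of amino acids, and Arabidopsis members serve root uptake and phloem loading. None of the 21 AAP genes tested was called (3 at an unadjusted p under 0.05, 1 by DESeq2), and their median log2 fold change was -0.02, with 10 positive and 11 negative. *Glyma.04G209100*, described as amino acid permease 4, was the only one with a 2-fold difference. It had 28.2, 22.4 and 24.8 CPM in the acid-treated libraries, against 56.4, 32.8 and 71.4 CPM in the control libraries, without overlap (log2 fold change -1.09 ± 0.29 SE, edgeR adjusted p = 0.164, and 0.0412 from DESeq2). Its counts were fractional in 3 libraries.

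The most abundant permease was *Glyma.06G116400* (amino acid permease 3), at 61.1 ± 11.6 FPKM in acid-treated and 62.8 ± 13.5 FPKM in control roots (SD, n = 3 each), with a log2 fold change of -0.02 that changed sign in 6 of 13 alternatives. A pair of genes described as amino acid permease 6 followed. *Glyma.04G088200* had 49.4, 37.6 and 37.9 CPM in the acid-treated libraries, against 59.6, 71.9 and 56.2 CPM in the control libraries (log2 fold change -0.59 ± 0.20 SE, edgeR adjusted p = 0.292). *Glyma.06G090200* had 50.5, 45.2 and 37.7 CPM in the acid-treated libraries, against 57.2, 81.3 and 57.0 CPM in the control libraries (log2 fold change -0.55 ± 0.22 SE, edgeR adjusted p = 0.377). Both were lower without overlap, by less than 2-fold, and 14.3% of the permeases tested lay wholly below the controls beside 9.24% of all genes tested. The counts of *Glyma.06G090200* were fractional in all 6 libraries. The summed level was 460, 373 and 357 CPM in the acid-treated libraries, against 484, 466 and 466 CPM in the control libraries (log2 ratio -0.25, exact permutation test, p = 0.1), and with RLE size factors the same sums gave p = 0.3 (exact permutation test).

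In the mixed set of other amino acid transporters, those of the genes tested with edgeR that differed most were higher in acid-treated roots. None of the 25 tested was called by edgeR and 2 were by DESeq2, 5 had an unadjusted p under 0.05, and 5 lay wholly above the controls and none below, which is 20% beside 7.17% of all genes tested. The median log2 fold change was 0.39, with 16 positive and 9 negative.

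*Glyma.14G054100*, described as sodium-coupled neutral amino acid transporter 7, had 12.3, 11.1 and 13.0 CPM in the acid-treated libraries, against 3.24, 7.47 and 2.90 CPM in the control libraries (log2 fold change 1.41 ± 0.37 SE, edgeR adjusted p = 0.164). *Glyma.14G054800*, described as sodium-coupled neutral amino acid transporter 10, had 19.2, 17.4 and 34.7 CPM in the acid-treated libraries, against 4.11, 14.4 and 4.97 CPM in the control libraries (log2 fold change 1.60 ± 0.49 SE, edgeR adjusted p = 0.229). In both, control replicate 2 was the control nearest to the acid-treated libraries, and DESeq2 called both (adjusted p = 0.0299 and 0.0425). *Glyma.01G218600*, similar to the aromatic and neutral amino acid transporter ANTL1, had 9.66, 9.14 and 10.2 CPM in the acid-treated libraries, against 3.22, 6.06 and 4.25 CPM in the control libraries (log2 fold change 1.10 ± 0.29 SE, edgeR adjusted p = 0.162). Its counts were fractional in 4 libraries, and *Glyma.01G218500*, removed by the filter, matched the same RefSeq gene.

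A pair of genes described as vacuolar amino acid transporter 1 differed by less than 2-fold, and was chosen after the values were seen. *Glyma.20G181900* had 42.8, 44.2 and 52.6 CPM in the acid-treated libraries, against 21.8, 25.0 and 30.8 CPM in the control libraries (log2 fold change 0.85 ± 0.20 SE, edgeR adjusted p = 0.133). *Glyma.10G208800* had 83.6, 64.0 and 103 CPM in the acid-treated libraries, against 41.1, 46.4 and 55.4 CPM in the control libraries (log2 fold change 0.81 ± 0.24 SE, edgeR adjusted p = 0.207). The groups did not overlap in either gene, and DESeq2 gave adjusted p-values of 0.0213 and 0.0596. A further gene of that description, *Glyma.11G252400*, was removed by the filter and was called lower only by DESeq2 (adjusted p = 0.0290), at 0.113, 0 and 0.111 CPM in the acid-treated libraries and 2.92, 0.107 and 3.94 CPM in the control libraries.

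The most abundant of all 188 genes per length belonged to this set. *Glyma.18G276800*, described as sodium-coupled neutral amino acid transporter 6, stood at 238 ± 79.4 FPKM in acid-treated and 248 ± 104 FPKM in control roots (SD, n = 3 each) and made up 44.0% of the FPKM of the set. *Glyma.08G254200* of the same description stood at 111 ± 22.0 FPKM in acid-treated and 122 ± 32.6 FPKM in control roots, and *Glyma.18G022400* at 35.9 ± 11.5 FPKM in acid-treated and 50.5 ± 17.3 FPKM in control roots (SD, n = 3 each). Replicates varied widely, *Glyma.18G276800* having 680, 404 and 366 CPM in the acid-treated libraries and 259, 618 and 602 CPM in the control libraries. The sums of the set, 1389, 924 and 1009 CPM in the acid-treated and 730, 1199 and 1262 CPM in the control libraries, overlapped (log2 ratio 0.06, exact permutation test, p = 0.9).

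**Figure D4:**
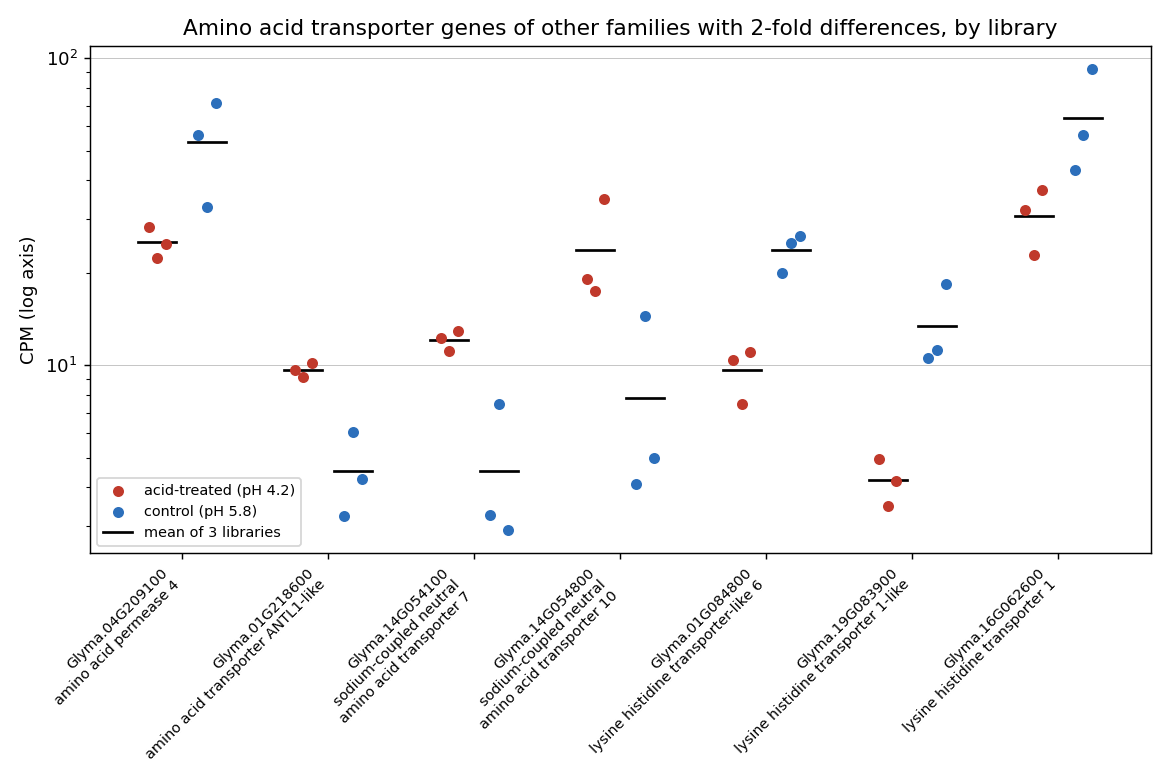
CPM on a log axis in each library for the 7 genes outside the WAT1-related family with at least a 2-fold difference, an unadjusted p under 0.05 and no overlap between groups, with bars at the means of 3 libraries. The permease and the 3 lysine histidine transporters are lower in acid-treated roots, and the 3 other amino acid transporters are higher.

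Plant proline transporters carry proline and related compatible solutes. Of 5 genes, 3 were tested and edgeR called none, with 1 at an unadjusted p under 0.05. *Glyma.05G043100*, described as proline transporter 2-like and named after its values were seen because DESeq2 called it (adjusted p = 0.000869), had 4.51, 1.69 and 1.33 CPM in the acid-treated libraries, against 29.7, 4.25 and 26.8 CPM in the control libraries. Acid-treated replicate 1 was above control replicate 2, so the groups overlapped, and the edgeR estimate of -3.01 ± 0.74 (SE) on the log2 scale had an adjusted p of 0.142. The more abundant *Glyma.18G031300* and *Glyma.02G253200* stood at 18.5 ± 2.93 and 12.1 ± 1.29 FPKM in acid-treated roots and at 24.4 ± 5.26 and 15.9 ± 4.41 FPKM in control roots (SD, n = 3 each). Their log2 fold changes were -0.38 and -0.34 (edgeR adjusted p = 0.566 and 0.637). The family summed to 60.6, 63.1 and 58.9 CPM in the acid-treated libraries, against 87.1, 83.8 and 114 CPM in the control libraries, without overlap (log2 ratio -0.64, exact permutation test, p = 0.1).

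The GABA transporter GAT1 of Arabidopsis imports GABA, the product of glutamate decarboxylase, an enzyme that consumes protons. Of the 7 soybean genes, 4 were tested and none was called by edgeR or DESeq2, with 1 at an unadjusted p under 0.05. *Glyma.10G201600* (GABA transporter 1-like) had 10.7, 8.35 and 9.31 CPM in the acid-treated libraries, against 13.0, 12.7 and 14.9 CPM in the control libraries, without overlap (log2 fold change -0.52 ± 0.21 SE, edgeR adjusted p = 0.383). It was the only one of the 4 wholly below the controls (25%, beside 9.24% of all genes tested), too few genes to compare these shares. *Glyma.12G181100*, the most abundant, stood at 9.21 ± 1.43 FPKM in acid-treated and 11.2 ± 2.27 FPKM in control roots, and *Glyma.20G188800* at 5.16 ± 2.28 FPKM in acid-treated and 5.80 ± 1.74 FPKM in control roots (SD, n = 3 each). The summed level was 41.7, 37.0 and 34.2 CPM in the acid-treated and 41.0, 41.5 and 49.7 CPM in the control libraries (log2 ratio -0.23, exact permutation test, p = 0.3).

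Cationic amino acid transporters carry basic and other amino acids at the plasma membrane, the tonoplast or the plastid. None of the 12 genes tested was called by edgeR or DESeq2 or differed 2-fold, and 2 had an unadjusted p under 0.05, with log2 fold changes from -0.70 to 0.80 and a median of -0.20. The most abundant, *Glyma.17G148600*, stood at 26.1 ± 3.33 FPKM in acid-treated and 28.2 ± 6.85 FPKM in control roots (SD, n = 3 each). *Glyma.19G116400* and *Glyma.05G066600* followed at 11.9 ± 0.323 and 10.5 ± 3.27 FPKM in acid-treated roots and 15.0 ± 4.19 and 14.3 ± 6.10 FPKM in control roots (SD, n = 3 each). One gene of the family was wholly above and 1 wholly below the controls, both by less than 2-fold (8.33% each, beside 7.17% above and 9.24% below among all genes tested). The summed level was 242, 196 and 222 CPM in the acid-treated and 207, 273 and 284 CPM in the control libraries (log2 ratio -0.21, exact permutation test, p = 0.3).

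AUX1 and its LAX relatives carry auxin into the cell. None of the 13 auxin transporter-like genes tested was called by edgeR or DESeq2, and 2 had an unadjusted p under 0.05. The most abundant, *Glyma.04G252300* (RefSeq symbol *LAX6*), had 49.9, 70.6 and 65.6 CPM in the acid-treated libraries and 150, 77.4 and 43.5 CPM in the control libraries. *Glyma.06G110200* (*LAX8*), also described as auxin transporter-like protein 3, had 18.8, 29.9 and 35.1 CPM in the acid-treated libraries and 74.1, 29.0 and 14.1 CPM in the control libraries. In both genes control replicate 1 was the highest and control replicate 3 the lowest of all 6 libraries, and the estimates of -0.54 ± 0.41 and -0.48 ± 0.53 (SE) on the log2 scale took the other sign without control replicate 1. *Glyma.11G106000*, auxin transporter-like protein 5, stood at 13.4 ± 3.31 FPKM in acid-treated and 11.5 ± 3.17 FPKM in control roots (SD, n = 3 each), with fractional counts in 5 libraries. A pair described as auxin transporter-like protein 1 was lower without overlap, *Glyma.02G255800* (*LAX2*) at -0.90 and *Glyma.14G060700* (*LAX13*) at -0.56 (log2 fold change, edgeR adjusted p = 0.204 and 0.345). They were the only ones of the 13 wholly below the controls (15.4%, beside 9.24% of all genes tested). None of the 13 lay wholly above, beside 7.17% of all genes tested. The largest difference of the family went the other way, in *Glyma.03G063900* (*LAX4*), with 2.59, 1.58 and 15.4 CPM in the acid-treated libraries and 2.38, 2.78 and 0.104 CPM in the control libraries. It rested on acid-treated replicate 3, and the groups overlapped (log2 fold change 1.89 ± 1.02 SE, edgeR adjusted p = 0.537). These 3 genes were chosen after the values were seen. The family summed to 201, 234 and 280 CPM in the acid-treated and 372, 293 and 189 CPM in the control libraries (log2 ratio -0.25, exact permutation test, p = 0.5).

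**Figure D5:**
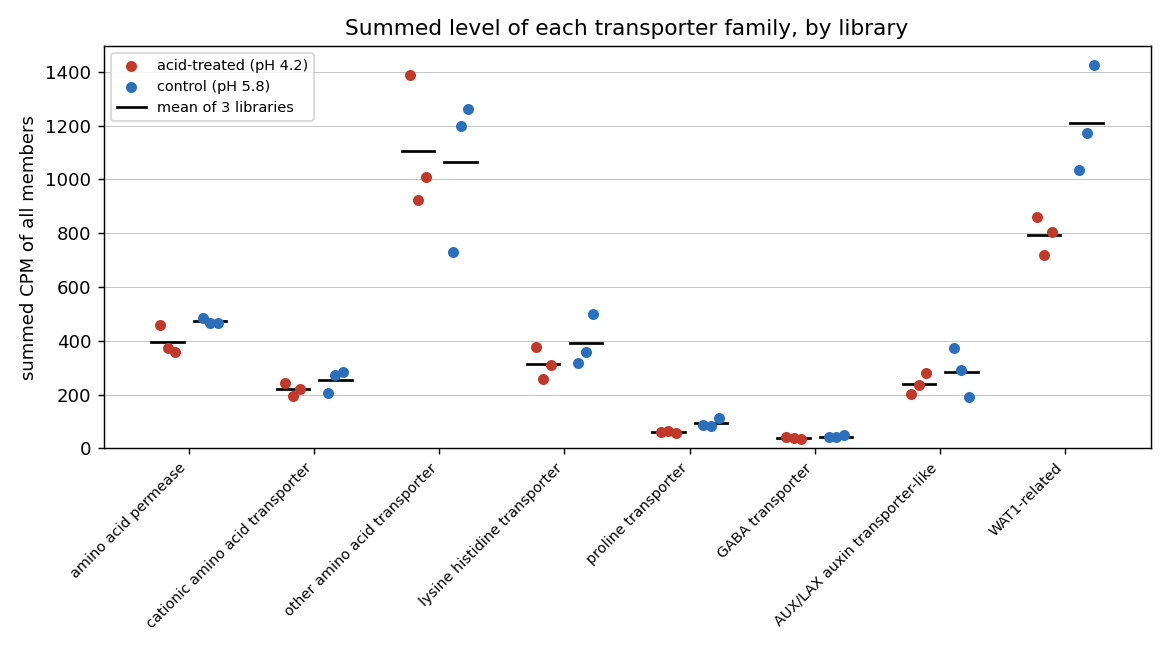
Summed CPM of all genes of each family in each library, on an axis from 0, with bars at the means of 3 libraries. Acid-treated libraries lie wholly below the controls for amino acid permeases, proline transporters and WAT1-related genes, and overlap with them in the other 5 families.

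Over the 8 families, the summed levels gave an adjusted p of 0.267 at the lowest (Benjamini-Hochberg over 8 exact permutation tests), and with a smallest possible p of 0.1 for each family none could pass. Of the 17 genes of all families with at least a 2-fold difference, an unadjusted p under 0.05 and no overlap, 13 were lower and 4 higher in acid-treated roots, out of 125 tested, beside 2.88% and 2.09% of all genes tested (4.97% in all). Control replicate 2 was the control nearest to the acid-treated libraries in 9 of the 13 and in 3 of the 4, and control replicate 3 in none. The same count was not made over all genes, so it does not set the transporter genes apart. Without control replicate 2, edgeR called 18 of the transporter genes, 4 higher and 14 lower, among 1086 genes called in all (3.15%).

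Genes of related functions were counted in the same fit. One of the 7 plasma membrane ATPase genes tested was called, beside 0.558% of all genes tested. This gene, *Glyma.13G065400*, encodes a proton pump of the kind that sets up the gradient used by proton-coupled carriers. It had 1.69, 1.48 and 3.43 CPM in the acid-treated libraries, against 10.3, 9.93 and 11.0 CPM in the control libraries (log2 fold change -2.23 ± 0.35 SE, edgeR adjusted p = 0.0406). The log2 fold changes of the 7 ran from -2.23 to 1.23 (median -0.11), with 2 positive and 5 negative. Of the 7, 1 lay wholly below the controls and 1 wholly above (9.24% and 7.17% of all genes tested). None was called among 3 auxin efflux carriers, 6 genes with the BAT1 description, 7 polyamine transporters, 13 oligopeptide transporters, 5 genes described as 5NG4 or MtN21 (*Glyma.06G111700* among them), 23 genes of glutamine, glutamate and asparagine synthesis, or 16 genes of proline and GABA metabolism. Of these 73 genes, 11 had an unadjusted p under 0.05, beside 11.8% of all genes tested. DESeq2 called 3 of them, beside 2.77% of all genes it gave an adjusted p. The smallest adjusted p was 0.0564 (edgeR), for the proline dehydrogenase gene *Glyma.13G049700* with a log2 fold change of -1.52.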

How the data were processed

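RNA from 3 acid-treated and 3 control root libraries was sequenced on a BGISEQ-500. The authors mapped reads to Williams82.a2.v1 with HISAT, added transcripts predicted with StringTie, remapped with Bowtie2 and ran RSEM, whose versions are not given in the sources used here. The deposited expected counts are estimated counts per gene without normalization, and the authors' FPKM values derive from them by gene length and library total. A gene missing from a library's list was taken as 0, and counts were rounded for testing. Genes were tested with edgeR 4.0.16 (R 4.3.3; filterByExpr, TMM, robust quasi-likelihood fit), and CPM uses TMM library sizes. Standard errors are the log2 fold change divided by the root of F. Replicate numbers in the titles do not state a pairing, and edgeR p-values weigh the difference between the groups against the spread between libraries. Alternatives were DESeq2 1.42.0, limma-trend 3.58.1 on log2(FPKM + 1) and log2(FPKM + 0.1), RLE factors, other filters, a replicate block and each library left out.

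Families followed the first search term in the description. Genes named by rule were all DEGs, those with unadjusted p under 0.05, 2-fold and no overlap, the 3 with the highest mean FPKM per family (2 in families under 6 genes), and any at 0 in one pH with a mean of at least 1 CPM in the other, of which there were 0. Other transporter genes were named after the values were seen, for example for their position or a DESeq2 call. The genes and lists were chosen with earlier results of these data known. RefSeq symbols and gene order come from Glycine_max_v4.0 through protein accessions, which 166 of 188 genes matched, and no coordinates are given because the builds differ. Calls were also tested on simulated counts, which used the dispersion estimated in the main fit. Python 3.11.15 with scipy 1.17.1 was used for permutation tests and matplotlib 3.10.9 for plots.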

Additional observations from a re-analysis of the deposited data

How the results depend on the processing

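The number of transporter genes called, 4 with edgeR, was 15 with DESeq2, 2 with the replicate block and between 0 and 18 with 1 library left out (0 without acid-treated replicate 2, 18 without control replicate 2), beside 187, 1060, 61 and between 7 and 1086 of all genes, and 323 of all genes without a filter. WAT1-related calls, 4 with edgeR, were 8 with DESeq2, 2 with the block and between 0 and 10 with 1 library left out. Where edgeR called none, DESeq2 called 1 amino acid permease, 3 other amino acid transporters, 2 lysine histidine transporters and 1 proline transporter, and leaving out 1 library gave between 0 and 1 permease, between 0 and 4 other amino acid transporters, between 0 and 2 lysine histidine transporters and between 0 and 1 proline transporter. Lysine histidine transporters called were 1 with limma-trend at either pseudocount and 2 without a filter. The same-numbered libraries deviated with a mean correlation of -0.187, negative in each of 3 pairs. Deviations from the mean of only 3 libraries cannot decide whether same-numbered libraries were handled together. With 1 library left out, the log2 ratio of the summed other amino acid transporters ran from -0.15 to 0.20, that of auxin transporter-like genes from -0.48 to -0.01, of lysine histidine transporters from -0.47 to -0.11, of cationic amino acid transporters from -0.34 to -0.13 and of GABA transporters from -0.31 to -0.13.

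Genes near 0 changed sign. Under DESeq2, RLE factors and no filter, *Glyma.06G116400* had log2 fold changes of 0.011, 0.0040 and 0.015, and *Glyma.01G161100* 0.021, 0.014 and 0.029. *Glyma.18G276800* had 0.00030 with DESeq2, 0.0010 and 0.0014 with limma-trend and 0.0071 without a filter, and *Glyma.13G081000* had -0.0037 at a mean count of at least 50. With 1 library left out, the ranges were -0.17 to 0.18 for *Glyma.06G116400*, -0.30 to 0.21 for *Glyma.01G161100*, -0.35 to 0.19 for *Glyma.18G276800*, -0.22 to 0.23 for *Glyma.13G081000*, -0.87 to 0.037 for *Glyma.04G252300*, -0.88 to 0.37 for *Glyma.06G110200*, -0.56 to 0.12 for *Glyma.20G188800*, -0.23 to 0.057 for *Glyma.06G310700*, -0.24 to 0.11 for *Glyma.17G148600* and -0.32 to 0.042 for *Glyma.08G254200*. The cause of these shifts was not tested. The other genes named by rule kept their direction under the alternatives run. Genes named for other reasons were not part of this check. The 63 genes removed by the filter had few counts, and of these DESeq2 called 1, *Glyma.11G252400*.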
